A study of Mus musculus with 30 samples.

Results

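The small RNAs described here came from 10 nuclear tRNA genes of the mouse, out of 408 nuclear tRNA genes that RefSeq lists for GRCm38. They were chosen by position, with earlier results of these data known. Each of the 10 genes lies whole inside 1 exon of a GENCODE vM21 transcript, so that its sequence could be read from the transcript. A read counted as theirs when it equalled, over its whole length, a stretch of the tRNA strand of such a gene with the CCA tail added. The 10 genes carry 8 anticodons, namely Arg-TCG, Arg-TCT, Gly-CCC, Ile-TAT, Pro-TGG, Ser-AGA, Ser-GCT and Ser-TGA. The other 398 nuclear tRNA genes were not analysed here. For every anticodon except Ile-TAT, RefSeq also lists genes outside this set (3 for Arg-TCT, 4 for Arg-TCG, 5 for Gly-CCC, 6 each for Pro-TGG and Ser-AGA, 7 for Ser-GCT and 1 for Ser-TGA), and a read that matched exactly may have come from one of those.

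The study compared hemizygous 5xFAD mice (AD), an Alzheimer's disease model that carries mutant human transgenes of familial disease under the neuronal Thy1 promoter, with their wild-type (WT) littermates. All mice were 6 months old, of both sexes and on a congenic C57BL/6J background. RNA of the prefrontal cortex was cut from a gel at 15 to 50 nt. PANDORA-seq was run on 8 libraries of each genotype and traditional-seq on 7 of each. In PANDORA-seq the RNA is treated with AlkB, which removes methyl groups such as those of m1A, and with T4 PNK, which gives fragments the end groups that adapter ligation needs. In traditional-seq the RNA goes untreated into the same kit. The libraries held 54926347 to 105876141 reads by PANDORA-seq and 9370669 to 17053412 reads by traditional-seq, so that 3 reads, taken as the floor, stood for 0.0283 to 0.0546 RPM (read count of a sequence scaled to a library of 1000000 reads) in the former and 0.176 to 0.320 RPM in the latter.

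A tRNA gene is transcribed as a precursor with a leader before the mature part and a trailer after it. RNase P removes the leader, RNase Z removes the trailer, an intron is spliced out where there is one, and the bases CCA are then added to the 3′ end, to which the amino acid is joined. Cleavage of mature tRNA, for example by angiogenin in the anticodon loop, leaves tRNA-derived small RNAs (tsRNAs), and some tRNA methylations, such as m1A in the T loop, stop the reverse transcriptase.

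The genes and their places in GRCm38 were as follows. Arg-TCG was represented by n-TRtcg5 at chr7:79466419-79466491 on the plus strand, in an exon of Gm10616, a gene model marked to be experimentally tested. Arg-TCT was represented by n-TRtct2 at chr3:122292948-122293032 on the minus strand, in a retained-intron transcript of Gm17494, and by n-TRtct4 at chr11:69123482-69123568 on the minus strand, antisense to a UTR exon of Hes7. Gly-CCC was represented by n-TGccc7 at chr17:25875088-25875158 on the plus strand, in a UTR exon of Mettl26. Ile-TAT was represented by n-TItat14 at chr13:21896938-21897031 on the minus strand, in the exon annotated as Mir1983. Pro-TGG was represented by n-TPtgg2 at chr11:67291139-67291210 on the plus strand, in a retained-intron transcript of Myh8. Ser-AGA was represented by n-TSaga9 at chr4:10874064-10874145 on the plus strand and Ser-GCT by n-TSgct5 at chr13:22050686-22050767 on the minus strand, the former in an exon annotated as a miRNA and the latter antisense to an exon of Gm48356. Ser-TGA was represented by n-TStga1 at chr13:23518146-23518227 on the plus strand and n-TStga2 at chr13:21924935-21925016 on the minus strand, which have the same sequence. The hosts of 4 of the 10 genes (n-TItat14, n-TSaga9, n-TStga1 and n-TStga2) are annotated as miRNA.

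The genes for Ser-GCT, Arg-TCG and Pro-TGG, which have no intron, are shown because the fragments described below are stretches of such sequences. Each sequence runs 5′ to 3′ on the tRNA strand with CCA added, and the anticodon is in capitals.
n-TSgct5: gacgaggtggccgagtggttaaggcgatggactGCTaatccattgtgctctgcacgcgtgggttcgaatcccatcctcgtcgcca
n-TRtcg5: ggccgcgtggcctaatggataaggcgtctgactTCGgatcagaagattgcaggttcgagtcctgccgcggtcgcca
n-TPtgg2: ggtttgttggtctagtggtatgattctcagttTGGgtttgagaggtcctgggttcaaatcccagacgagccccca
The genes for Ser-AGA and Ser-TGA differ at 2 bases and share the first 33 and, with CCA, the last 35. Reads from those shared ends could not be assigned to either and are given together as Ser-AGA/Ser-TGA. The gene for Ser-GCT differs from that for Ser-AGA at 20 bases and from that for Ser-TGA at 21.

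In 3 genes an intron interrupts the anticodon loop, and of these n-TRtct2 and n-TItat14 are printed with the intron in capitals.
n-TRtct2: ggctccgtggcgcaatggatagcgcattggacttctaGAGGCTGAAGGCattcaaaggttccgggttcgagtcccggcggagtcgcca
n-TItat14: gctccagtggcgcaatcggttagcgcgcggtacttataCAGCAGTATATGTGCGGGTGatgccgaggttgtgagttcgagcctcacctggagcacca
The intron has 12 bases in n-TRtct2, 14 in n-TRtct4 and 20 in n-TItat14. The annotated miRNA of the Mir1983 locus, mmu-miR-1983 of RefSeq, lies at chr13:21896930-21896950 on the minus strand and consists of the last 13 bases of n-TItat14 followed by the first 8 of its trailer. It is printed with the seed, bases 2 to 8, in capitals.
mmu-miR-1983: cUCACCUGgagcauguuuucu

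Reads of these genes made up 0.189% ± 0.0735 of all reads (SD, n = 16) by PANDORA-seq, 2419644 reads in all, and 0.0184% ± 0.00832 (SD, n = 14) by traditional-seq, 30362 reads in all. Within PANDORA-seq the share was lowest at 0.0480%, 0.163% at the median and highest at 0.337% in WT, and lowest at 0.0943%, 0.215% at the median and highest at 0.283% in AD. The AD libraries lay within the WT range, and every PANDORA-seq library lay above every traditional-seq library. Reads equal to the opposite strand numbered 14 by PANDORA-seq and 1 by traditional-seq. Of the 4288 distinct sequences counted, 34 also occurred in another GENCODE gene. All 34 were 18 nt or shorter, and they made up at most 0.127% of these reads in any PANDORA-seq library and 2.54% in any traditional-seq library. This check did not cover the other 398 nuclear tRNA genes, whose sequences could not be read.

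The small RNA markers of neurons, the hairpins of miR-124, miR-128 and miR-9, were detected in every library, at 1670 to 6881 RPM by PANDORA-seq and 87614 to 291798 RPM by traditional-seq. The summed markers of other tissues reached 7877 RPM for muscle and 3755 RPM for epithelium in single traditional-seq libraries, against at most 5.06 and 365 RPM by PANDORA-seq. Those of oligodendrocytes reached 158 RPM by PANDORA-seq and 1485 RPM by traditional-seq, those of blood 14.7 and 271, those of liver 258 and 755, and those of pituitary or islet 143 and 53.5. Their part in the results below was not tested. In bulk tissue, fewer cells of a type and less RNA per cell cannot be told apart. WT PANDORA-seq replicate 6 had the lowest or nearly the lowest value of its group for most of the anticodons, and the comparisons of genotypes were repeated without it and without every other library in turn.

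Gly-CCC and Ser-GCT gave most of the reads. Gly-CCC ranged from 279 to 1144 RPM with a median of 789 in the WT PANDORA-seq libraries, and from 367 to 1225 with a median of 822 in the AD libraries. By traditional-seq it ranged from 19.1 to 184 RPM with a median of 148 in WT and from 31.96 to 225.4 with a median of 95.5 in AD. For Gly-CCC the genotypes overlapped in both protocols and the protocols did not overlap each other.

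Ser-GCT ranged from 42.3 to 1675 RPM with a median of 574 in WT and from 126 to 1506 with a median of 667 in AD by PANDORA-seq. By traditional-seq it ranged from 5.65 to 23.8 RPM with a median of 11.7 in WT and from 6.68 to 17.2 with a median of 15.8 in AD. By PANDORA-seq WT replicate 3 was highest and WT replicate 6 lowest of all 16 libraries, and the genotypes overlapped in both protocols.

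The reads shared by Ser-AGA and Ser-TGA ranged from 138 to 370 RPM with a median of 153 in WT and from 165 to 411 with a median of 237 in AD by PANDORA-seq. By traditional-seq they ranged from 16.1 to 71.8 RPM with a median of 37.1 in WT and from 12.8 to 76.5 with a median of 36.8 in AD. The AD libraries reached higher by PANDORA-seq but overlapped the WT range.

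Arg-TCG ranged from 8.87 to 381 RPM with a median of 99.8 in WT and from 50.2 to 204.4 with a median of 131 in AD by PANDORA-seq. By traditional-seq it did not exceed 3.97 RPM in any library. Both ends of its PANDORA-seq range were WT libraries.

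The remaining anticodons were scarcer. By PANDORA-seq, Arg-TCT had 22.7 ± 7.20 RPM, reads particular to Ser-TGA 14.3 ± 6.58, reads particular to Ser-AGA 13.2 ± 6.35, Ile-TAT 6.71 ± 2.78 and Pro-TGG 0.467 ± 0.135 (SD, n = 16). By traditional-seq Arg-TCT had 3.31 ± 1.21 RPM, Ile-TAT 0.828 ± 0.574, Ser-TGA 0.378 ± 0.381, Ser-AGA 0.191 ± 0.204 and Pro-TGG 0.0463 ± 0.0591 (SD, n = 14), the last 3 at or near the floor of 3 reads. The Pro-TGG value holds exact matches of n-TPtgg2 only. Reads 1 base off that gene, given further below, had a mean of 194.5 RPM by PANDORA-seq. The genes are 71 to 94 bases long, so the values were not divided by length. In the order of the PANDORA-seq means each neighbour overlapped the next in range, except that all 16 Pro-TGG values, 0.279 to 0.729 RPM, lay below the lowest Ile-TAT value, 2.19 RPM.

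**Figure D1:**
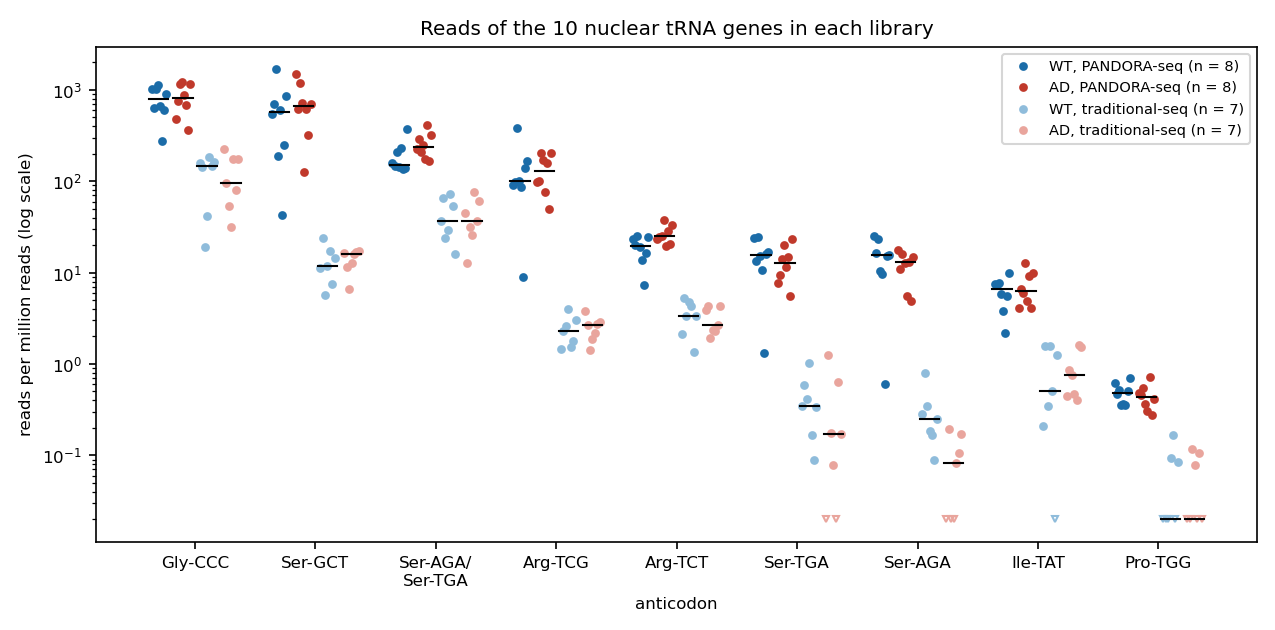
RPM of each anticodon (log axis) in every library, by genotype and protocol; each point is a library, bars are medians, and open triangles at the bottom mark libraries without a read. Gly-CCC and Ser-GCT lie highest by PANDORA-seq, with mean RPM of 810 and 669, and WT and AD points overlap for every anticodon.

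The protocols were compared to ask which tsRNAs the enzyme treatments bring into view. In the count test over all 30 libraries (edgeR quasi-likelihood test with Benjamini-Hochberg adjustment over all 1082 RNAs tested, library totals as size factors, genotype as a covariate), 9 of the 10 rows of these tRNAs were higher by PANDORA-seq and 0 lower, where a call needed both an adjusted p under 0.05 and more than a 2-fold difference. Of all RNAs tested, 44.7% were called higher and 37.2% lower. The median log2 difference was 3.14 for the 10 rows and 0.52 for all RNAs. With TMM in place of library totals, these became 3.82 and 1.14. Scaled to the reads that matched the reference, a smaller share of a PANDORA-seq library, they became 5.18 and 2.78, and 10 of 10 rows were called higher, against 65.4% of the 1039 RNAs tested higher and 20.1% lower. Groups did not overlap in 8 of the 10 rows, against 40.9% of all RNAs. The 22 mitochondrial tRNAs, the only other tRNAs counted, had a median log2 difference of -1.93, with 3 higher and 13 lower, but of 0.09 when scaled to matched reads, with 9 higher and 7 lower. The codes in the file names pair 14 libraries of each protocol. Whether these came from the same mice is not stated, and the tests treat the 30 libraries as independent. With those codes as a replicate block, edgeR called 10 of the 10 rows higher.

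The PANDORA-seq files hold reads up to 45 nt and those of traditional-seq up to 42 nt, so that fragments of 43 to 45 nt could be counted in 1 protocol only. With both limited to 15 to 42 nt, 9 of the 10 rows were higher and 0 lower (edgeR), against 44.5% and 37.2% of 1062.

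The size of the difference varied between anticodons. On the log2 scale Ser-AGA was higher by 6.24 ± 0.47 (SE, edgeR adjusted p = 1.62e-15), Arg-TCG by 5.77 ± 0.37 (1.54e-17), Ser-GCT by 5.63 ± 0.41 (6.78e-16) and Ser-TGA by 5.27 ± 0.46 (1.18e-13). Limited to 15 to 42 nt, these became 4.65 ± 0.49 for Ser-AGA, 5.92 ± 0.37 for Arg-TCG, 5.06 ± 0.37 for Ser-GCT and 4.61 ± 0.48 for Ser-TGA, so that Arg-TCG and not Ser-AGA had the highest estimate. Over the same lengths Ser-AGA had 4.47 RPM by PANDORA-seq, against 13.2 with reads of 43 to 45 nt. The reads behind the Ser-AGA and Ser-TGA values cover a base that tells these genes apart, and many run on through the shared 3′ end. They were few by traditional-seq. Smaller differences were found for Pro-TGG at 3.24 ± 0.43 (edgeR adjusted p = 5.41e-09), Ile-TAT at 3.03 ± 0.35 (3.32e-10), Arg-TCT at 2.76 ± 0.25 (4.46e-13), Gly-CCC at 2.74 ± 0.31 (1.53e-10) and the reads shared by Ser-AGA and Ser-TGA at 2.40 ± 0.27 (9.58e-11). Over the alternative settings the Pro-TGG difference ranged from 1.91 to 5.21. The row not called held the few short reads common to all 3 serine anticodons, at 0.83 ± 0.39 (0.0463), under the fold limit. Reads across a splice junction or with leader or trailer bases were counted apart and are not in the Ile-TAT and Arg-TCT values. When the junction reads were added, a choice made after seeing the data, Ile-TAT was at 1.58 ± 0.28 (edgeR adjusted p = 3.05e-06) and Arg-TCT at 3.44 ± 0.26 (1.83e-15). Trailer reads remained outside both values. They had 1.11 RPM by PANDORA-seq and 12.8 by traditional-seq for Ile-TAT, and 35.2 and 0.00502 for Arg-TCT.

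Reads were then divided by where they lie in the tRNA. A 5′ fragment begins at the first base, a 3′ CCA fragment ends with the complete CCA, a 3′ fragment with an incomplete end stops 1 to 3 bases short of it, and other reads within the mature tRNA are internal. By PANDORA-seq 65.0% ± 8.26 of the reads were 3′ fragments with an incomplete end, 22.9% ± 6.88 were 5′ fragments, 12.0% ± 2.85 were internal and 0.0623% ± 0.0107 ended in the complete CCA (SD, n = 16). By traditional-seq these shares were 1.33% ± 0.724, 35.05% ± 9.68, 59.2% ± 11.1 and 4.46% ± 3.59 (SD, n = 14). Of PANDORA-seq reads of 15 to 42 nt alone, 60.5% ± 8.48 were 3′ fragments with an incomplete end (SD, n = 16). The internal share by traditional-seq lay mostly close to the 5′ end, since 83.2% ± 9.74 of the reads began at base 1 to 5, against 25.9% ± 8.64 by PANDORA-seq. This rests on Gly-CCC, with 16150 traditional-seq reads starting at base 2 to 5. The next highest, Ser-AGA/Ser-TGA, had 113.

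The 3′ ends differed in their last base. Of reads that ended within 3 bases of the complete CCA, 72.6% ± 7.62 lacked exactly 1 base by PANDORA-seq, so that they stopped at CC, 19.4% ± 3.79 lacked 2 bases, 7.88% ± 4.65 lacked all 3, and 0.0980% ± 0.0248 were complete (SD, n = 16). By traditional-seq 74.3% ± 9.37 were complete and 17.9% ± 7.54, 2.23% ± 1.43 and 5.65% ± 4.02 lacked 1, 2 and 3 bases (SD, n = 14). PANDORA-seq reads that ended elsewhere in these tRNAs ended in A in 13.8% ± 3.48 of cases and those of traditional-seq in 8.09% ± 2.79. The mitochondrial tRNAs showed complete CCA ends in 0.202% ± 0.0457 by PANDORA-seq and 62.8% ± 6.25 by traditional-seq. Whether the enzyme steps, RNA handling or read trimming goes with this difference was not tested.

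The same held within each anticodon with enough reads. The share of complete CCA among 3′ ends was 0.0960% ± 0.0326 by PANDORA-seq and 68.8% ± 16.4 by traditional-seq for Gly-CCC, 0.134% ± 0.0839 and 56.0% ± 18.7 for Ser-GCT, and 0.318% ± 0.425 and 90.6% ± 9.33 for Ser-AGA/Ser-TGA (SD, n = 16 and 14). For Arg-TCG it was 0.0952% ± 0.103 and 85.9% ± 18.4 in the 12 traditional-seq libraries that had such reads. In all 4 the protocols did not overlap (p = 2e-05 by a two-sided permutation test, a value that 100000 shuffles cannot go below). Arg-TCT had 9 complete ends of 16154 by PANDORA-seq and 18 of 31 by traditional-seq, Ile-TAT 14 of 5608 and 55 of 77, and Pro-TGG 1 of 260 and 8 of 8. Genotype made no detectable difference to this share by PANDORA-seq, the smallest p being that of Gly-CCC, at 0.111% in AD and 0.0812% in WT (exact permutation test, p = 0.0654).

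**Figure D2:**
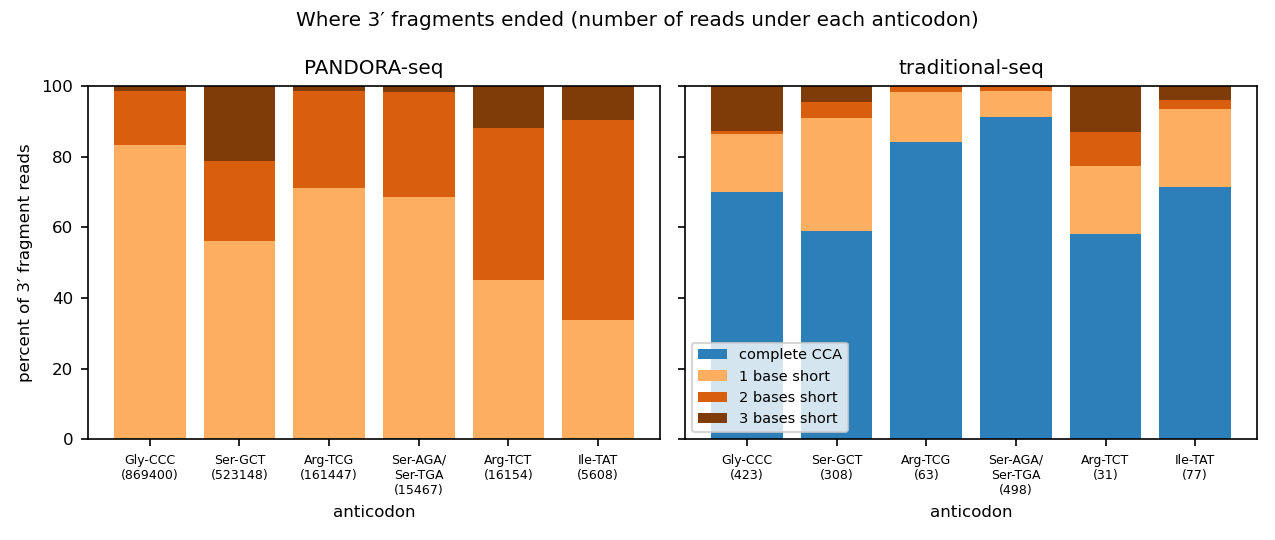
Share of 3′ ends, in percent, that held the complete CCA or lacked 1, 2 or 3 bases of it, for each anticodon and protocol, with the number of reads in parentheses. PANDORA-seq ends mostly lacked the last A and traditional-seq ends were mostly complete, at 0.0980% and 74.3% over all members.

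The 3′ fragments were also longer by PANDORA-seq. Nearly all of them, 98.5% ± 0.818 (SD, n = 16), covered the T-loop adenosine at position 58 of the standard tRNA numbering, the base 19 from the 3′ end of all 10 genes, which carries m1A in many tRNAs. By traditional-seq 29.04% ± 10.8 of them covered it (SD, n = 14), and by PANDORA-seq at 15 to 42 nt 98.1% ± 0.993 (SD, n = 16). Among reads with the complete CCA alone the shares were 80.2% ± 10.2 and 17.0% ± 9.23. The sequences with the most reads in these classes show this, with bases of the CCA tail in capitals.
Ser-GCT 3′ fragment, PANDORA-seq: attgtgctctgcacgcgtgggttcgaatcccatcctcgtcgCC
Arg-TCG 3′ fragment, PANDORA-seq: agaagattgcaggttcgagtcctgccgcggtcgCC
Gly-CCC 3′ fragment, traditional-seq: ttcccgggcggcgcaCCA
The PANDORA-seq sequences of Ser-GCT and Arg-TCG had 72171 and 15522 reads and both stopped at CC. The traditional-seq sequence of Gly-CCC and that of Ser-AGA/Ser-TGA, which is not printed, were both 18 nt long, had 133 and 301 reads, and began just after the T-loop adenosine.

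Counted as 5′, 3′ CCA and all other reads, 13 of the 17 rows of anticodon and fragment were higher by PANDORA-seq and 3 lower, against 44% and 38.2% of the 1130 rows tested (edgeR quasi-likelihood test with Benjamini-Hochberg adjustment). The 3 lower rows were all 3′ CCA fragments, with log2 differences of -6.52 ± 0.51 for Ser-AGA/Ser-TGA (SE, edgeR adjusted p = 6.57e-15), -1.62 ± 0.29 for Gly-CCC (3.75e-06) and -1.35 ± 0.39 for Ser-GCT (0.00177). Scaled to matched reads, only that of Ser-AGA/Ser-TGA stayed lower, at -4.51 ± 0.46 (SE, edgeR adjusted p = 2.18e-11), while Gly-CCC and Ser-GCT turned to 0.55 ± 0.30 (0.0755) and 0.79 ± 0.41 (0.0682), so that the direction of these 2 rows depends on the total used. That fit called 14 of the 17 rows higher and 1 lower, against 64.6% and 21% of its 1082 rows. With these classes, ends that lack 1 to 3 bases of the CCA count among all other reads. Complete and incomplete 3′ ends together had higher mean RPM by PANDORA-seq for these 3 anticodons. The means were 12.1 against 3.21 for Ser-AGA/Ser-TGA, 670 against 2.63 for Gly-CCC and 430 against 1.91 for Ser-GCT. The 5′ fragments tested were higher, by 4.08 ± 0.33 for Ser-GCT (edgeR adjusted p = 1.33e-14), 2.58 ± 0.35 for Arg-TCT (1.02e-08), 2.46 ± 0.28 for Ser-AGA/Ser-TGA (2.1e-10) and 1.62 ± 0.35 for Gly-CCC (5.09e-05). With starts at base 2 to 5 also counted, Gly-CCC had 82.2 ± 35.4 RPM by PANDORA-seq and 110.5 ± 64.5 by traditional-seq (SD). Its direction thus depends on the start required. Ser-GCT, Arg-TCT and Ser-AGA/Ser-TGA stayed higher, at 148 against 8.59, 4.81 against 0.739 and 211 against 38.5 RPM. The rows of all other reads were higher by 7.08 ± 0.48 for Ser-GCT, 6.24 ± 0.47 for Ser-AGA, 5.98 ± 0.37 for Arg-TCG, 5.26 ± 0.46 for Ser-TGA and 3.82 ± 0.37 for Ile-TAT. Those of Ser-AGA/Ser-TGA, Gly-CCC and Arg-TCT were higher by 3.48 ± 0.38, 2.86 ± 0.33 and 2.85 ± 0.26. That of Pro-TGG was called too, with 609 reads by PANDORA-seq and 0 in the 14 traditional-seq libraries. Against a floor of 3 reads over those libraries together it was at least 26.04-fold higher, all 609 being of 15 to 42 nt. Limited to those lengths, 13 rows were again higher and 3 lower, against 44% and 38.2% of 1110, with the other reads of Ser-GCT at 6.25 ± 0.44, Ser-AGA at 4.65 ± 0.49 and Ser-TGA at 4.59 ± 0.48. With the file-name codes as a replicate block edgeR called all 17 rows, 14 higher and 3 lower. With 3′ fragments of incomplete end and reads over the gene's ends as classes of their own, a division made after the ends had been seen, 23 of 32 rows were higher and 5 lower, against 44.5% and 37.7% of all rows. The 3′ fragments with an incomplete end were higher for all 8 rows tested, on the log2 scale by 5.00 ± 0.51 for Ile-TAT, 5.44 ± 0.49 for Ser-AGA/Ser-TGA, 7.28 ± 0.45 for Arg-TCT, 9.14 ± 0.56 for Ser-GCT, 9.74 ± 0.43 for Gly-CCC and 11.02 ± 0.59 for Arg-TCG. This class is split at the end in which the protocols differ, so these differences reflect that end as well as the amount of 3′ fragment. Complete and incomplete ends together had 128.8 RPM by PANDORA-seq and 0.399 by traditional-seq for Arg-TCG. For Arg-TCT these means were 12.4 and 0.199, and for Ile-TAT 4.24 and 0.482. Most incomplete-end fragments of Ser-AGA and Ser-TGA were of 43 to 45 nt, which the traditional-seq files cannot hold, so they are compared at 15 to 42 nt only. Those of Ser-AGA, with 1685 of 12072 reads at these lengths, had 0 traditional-seq reads and were at least 80.4-fold higher against a floor of 3 reads over the group. Those of Ser-TGA, with 1632 of 8347, had 1 traditional-seq read, a ratio of pooled RPM of 234 (exact 95% interval 41.9 to 9238, counting error only). At 15 to 42 nt Ser-GCT was at 8.07 ± 0.52. Internal reads were higher for 7 of 10 rows, by 4.91 for Ser-GCT, 4.43 for Ser-AGA, 4.41 for Ser-TGA, 2.89 for Ile-TAT, 1.41 for Arg-TCT and 1.36 for Arg-TCG on the log2 scale, and for Pro-TGG, with 0 traditional-seq reads, by at least 14.96-fold. The 5′ fragments were higher for the same 4 rows as above. Trailer reads were higher by 4.85 for Ser-GCT, 2.70 for Gly-CCC and 2.03 for Arg-TCG, also for Arg-TCT, on 1 traditional-seq read (ratio of pooled RPM at 15 to 42 nt 4511, exact 95% interval 809.5 to 178173), and lower for Ile-TAT and, at -3.10 ± 0.33, for Ser-TGA. The other lower rows were the 3 of the complete CCA. With these classes and matched reads as the total, 27 of 31 rows were higher and 2 lower (Ser-AGA/Ser-TGA with the complete CCA and the trailer of Ile-TAT), against 65.1% and 20.6% of 1115, and the trailer of Ser-TGA was not among the rows tested. With these classes at 15 to 42 nt, 23 of 32 rows were higher and 5 lower, against 44.5% and 37.6% of 1144.

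Gly-CCC, the most abundant anticodon, gave different fragments in the 2 protocols. By PANDORA-seq its 3′ fragments with an incomplete end had 669 ± 283 RPM (SD, n = 16), its internal reads 101 ± 31.7 and its 5′ fragments 39.8 ± 28.6. The sequence with the most reads, 226915, ran over 40 nt from base 34, in the anticodon, to base 73, the second C of the tail. Its reads began at base 34 in 27.5%, 35 in 23.6% and 36 in 21.5% of cases. By traditional-seq the internal reads had 105 ± 62.5 RPM, the 5′ fragments 12.9 ± 7.99 and the 3′ fragments with an incomplete end 0.791 (mean, n = 14). Those reads began at base 4 in 57.3%, base 3 in 21.1% and base 1 in 10.7% of cases and ended at base 34 or 35 in 44.1% and 33.3%. Most thus lay in the 5′ part of the gene without its first bases. Whether they were shortened 5′ fragments or came from another tRNA gene was not tested. Gly-CCC reads starting at base 2 to 5 had 42.4 ± 21.5 RPM by PANDORA-seq (SD, n = 16) and 97.6 ± 61.1 by traditional-seq (SD, n = 14). The internal class as a whole did not differ detectably between the protocols (log2 difference -0.07 ± 0.29, SE, edgeR adjusted p = 0.815), but was higher by PANDORA-seq when scaled to matched reads (2.02 ± 0.31, edgeR adjusted p = 2.23e-07). The sequence with the most reads among the internal ones by PANDORA-seq, with 19933 reads, was of the same kind, from base 4 to base 33.
Gly-CCC internal fragment, PANDORA-seq: ccgctggtgtagtggtatcatgcaagattc

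Ser-GCT gave both kinds of fragment by PANDORA-seq. Its 3′ fragments with an incomplete end had 429 ± 341 RPM, its 5′ fragments 146 ± 76.9 and its internal reads 93.0 ± 72.4 (SD, n = 16). The main 5′ fragment was 35 nt long, ended within the anticodon and had 84281 reads.
Ser-GCT 5′ fragment, PANDORA-seq: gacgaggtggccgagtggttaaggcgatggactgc
Ser-GCT 5′ fragment, traditional-seq: gacgaggtggccgagtggttaagg
By traditional-seq the 5′ fragments had 8.48 ± 3.89 RPM (SD, n = 14), and the sequence with the most reads, 395, was the first 24 bases. The 5′ fragments of Ser-GCT of 30 to 35 nt ranged from 13.1 to 204.8 RPM with a median of 105 in WT and from 71.7 to 320 with a median of 166 in AD by PANDORA-seq, and the genotypes overlapped.

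Ser-AGA/Ser-TGA stood apart in that reads from the shared ends came almost wholly from the 5′ end in both protocols. Of these reads 94.1% by PANDORA-seq and 90.2% by traditional-seq began at base 1. The sequences with the most reads ended in the D arm, at 22 and 23 nt, with 55671 and 2326 reads.
The 3′ fragments of the shared end had 12.1 RPM by PANDORA-seq with an incomplete end and 2.92 RPM by traditional-seq with the complete CCA. Longer 3′ fragments reach the base that tells the genes apart. With an incomplete end, these had 9.35 RPM for Ser-AGA and 6.38 RPM for Ser-TGA by PANDORA-seq. By traditional-seq there were none for Ser-AGA and 0.00602 RPM for Ser-TGA. Most of the PANDORA-seq reads were longer than 42 nt, which the traditional-seq files cannot hold. At 15 to 42 nt there were 1685 of 12072 for Ser-AGA and 1632 of 8347 for Ser-TGA.

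In Ser-AGA the adenosine at position 34, the wobble base, is one that ADAT enzymes deaminate to inosine, which is read as G. Among reads over that base with at most this change, 1049 carried G and 50 carried A by PANDORA-seq, so that 95.5% carried G, and 0 carried G and 21 carried A by traditional-seq. The exact match used for all other values left the reads with G out.

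Arg-TCG was read almost only from its 3′ side. Its 3′ fragments with an incomplete end had 129 ± 85.1 RPM by PANDORA-seq (SD, n = 16) and 0.0623 RPM by traditional-seq, and its internal reads had 5.26 and 2.06 RPM. Reads from its first base numbered 65 over the 16 PANDORA-seq libraries and 0 over the 14 traditional-seq libraries. In the fit with all classes the 3′ fragments with an incomplete end differed by 11.02 ± 0.59 on the log2 scale (SE, edgeR adjusted p = 9.33e-20). Few traditional-seq reads lie behind that value. Complete and incomplete ends together had 128.8 RPM by PANDORA-seq and 0.399 by traditional-seq.

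**Figure D3:**
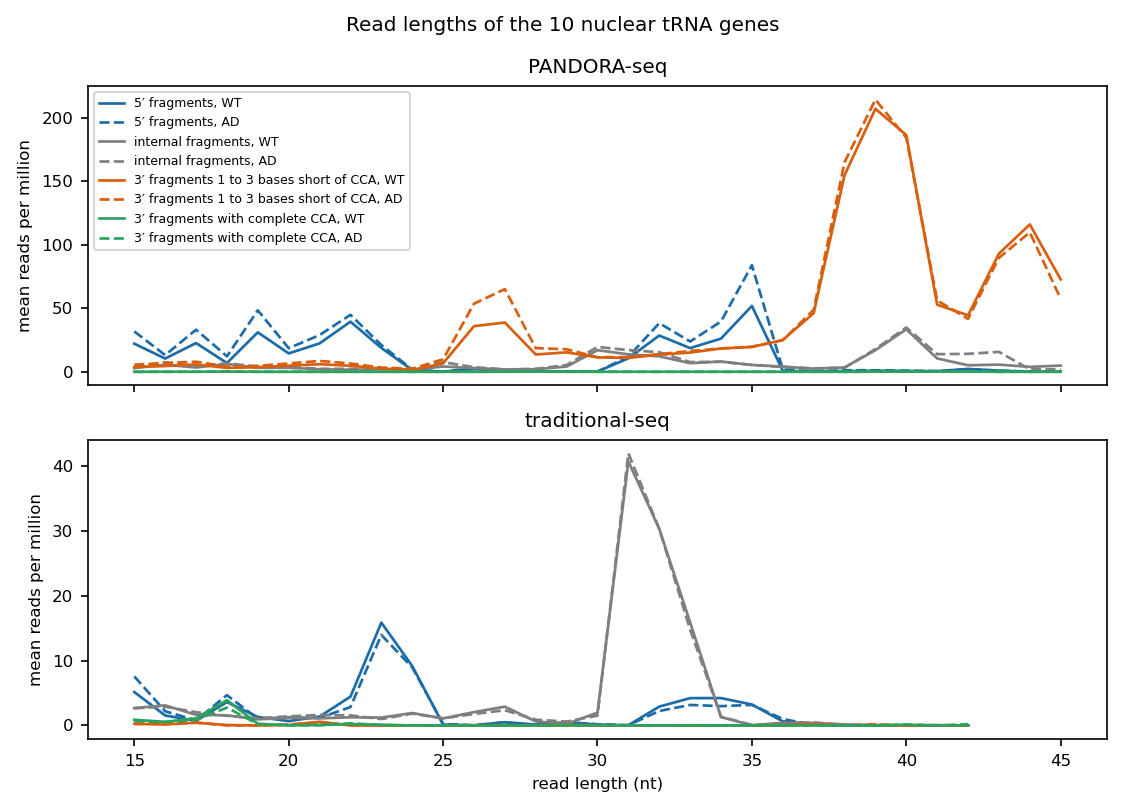
Mean RPM of the reads of these tRNAs at each length in nt, by protocol and fragment class. PANDORA-seq reads are mostly 3′ fragments with an incomplete end at the longer lengths, and traditional-seq reads are mostly 5′ and internal, with Gly-CCC reads of 31 to 33 nt forming the main peak.

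The intron-containing genes also gave reads of precursors. For Arg-TCT, reads that ran from the 3′ exon into the trailer ranged from 2.71 to 118 RPM with a median of 26.8 in WT and from 10.1 to 62.0 with a median of 33.2 in AD by PANDORA-seq. Genotypes overlapped, and their means differed by less than their spread (exact permutation test, p = 0.903). That test included reads of 43 to 45 nt, whose share of all reads was lower in AD. A genotype difference without those lengths was not tested for these reads. By traditional-seq there was 1 read from the 3′ exon into the trailer in the 14 libraries, against 43362 by PANDORA-seq (permutation test, p = 2e-05, the lower limit of 100000 shuffles). At 15 to 42 nt, lengths that the files of both protocols hold, Arg-TCT trailer reads numbered 1 and 31496. The PANDORA-seq reads of all lengths had a sharp start: 16140 of 16387 of n-TRtct2 began at base 50 and 26399 of 26975 of n-TRtct4 began at base 52, in both genes the first base of the 3′ exon, where the intron ends. They mostly ended 6 to 8 bases into the trailer in n-TRtct2, with 7 bases in 43.4% of reads, and 2 to 4 bases into it in n-TRtct4, with 3 bases in 56.6%. In n-TRtct2, 9 bases were held by 7.01% of reads. A read from base 50 with more exceeds 45 nt, the limit of the PANDORA-seq files, so such ends could not be seen. From 7 bases on, such a read exceeds 42 nt, the limit of the traditional-seq files. Most of the reads found thus held the whole 3′ exon without the intron and a part of the trailer.

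The 3′ exon of Arg-TCT with C, CC or CCA in place of the trailer had 10.9 ± 4.40 RPM by PANDORA-seq (SD, n = 16), whatever the start of the read, against 35.2 ± 28.01 for the reads with trailer. Of these the sequence with the most reads, with 1301, also began at the first base of the 3′ exon.
Arg-TCT 3′ fragment of n-TRtct2, PANDORA-seq: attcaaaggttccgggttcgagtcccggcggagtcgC
Reads across the splice junction, which come from spliced tRNA of these genes or from genes with no intron, had 19.1 ± 7.59 RPM by PANDORA-seq (SD, n = 16) and 0.479 ± 0.261 by traditional-seq (SD, n = 14; permutation test, p = 2e-05, the lower limit of 100000 shuffles). Reads that covered intron bases had 1.999 ± 0.629 and 0.231 ± 0.261 RPM. Reads with leader bases had 3.33 ± 1.42 and 2.03 ± 1.71 RPM and overlapped between the protocols (permutation test, p = 0.0293).

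Ile-TAT behaved the other way in its trailer reads. They ranged from 0.280 to 2.38 RPM by PANDORA-seq and from 5.14 to 27.3 RPM by traditional-seq, with no overlap (permutation test, p = 2e-05, the lower limit of 100000 shuffles). In the fit with all classes they were lower by PANDORA-seq, with a log2 difference of -3.52 ± 0.31 (SE, edgeR adjusted p = 2.06e-13), and of -1.43 ± 0.26 when scaled to matched reads. Its reads within the exons or intron of the gene were higher, while those across the splice junction, counted apart, had 1.39 ± 0.595 RPM by PANDORA-seq (SD, n = 16) and 1.93 ± 1.26 by traditional-seq (SD, n = 14). By traditional-seq the sequence with the most reads was mmu-miR-1983 itself, with 1287 reads found in 14 of 14 libraries at 2.28 to 19.7 RPM. By PANDORA-seq the exact miRNA had 22 reads in 6 of 16 libraries, and the sequence with the most reads, 477, was 2 bases shorter.
Ile-TAT trailer read, PANDORA-seq: ctcacctggagcaTGTTTT
Ile-TAT trailer read, traditional-seq: ctcacctggagcaTGTTTTCT
Capitals mark the trailer bases. Trailer reads with the 5′ end of mmu-miR-1983, whatever their 3′ end, had 0.631 RPM by PANDORA-seq and 11.4 RPM by traditional-seq. The 21 nt length alone held 1340 traditional-seq reads and the 20 nt length 571, whereas the PANDORA-seq reads centred on 19 nt with 545 reads and 20 nt with 388. Only 1 of 1517 PANDORA-seq trailer reads of n-TItat14 began at base 59, the start of its 3′ exon, unlike those of both Arg-TCT genes. Its trailer reads did not differ detectably between genotypes by traditional-seq, at 12.2 RPM in AD and 13.4 in WT (exact permutation test, p = 0.759).

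**Figure D4:**
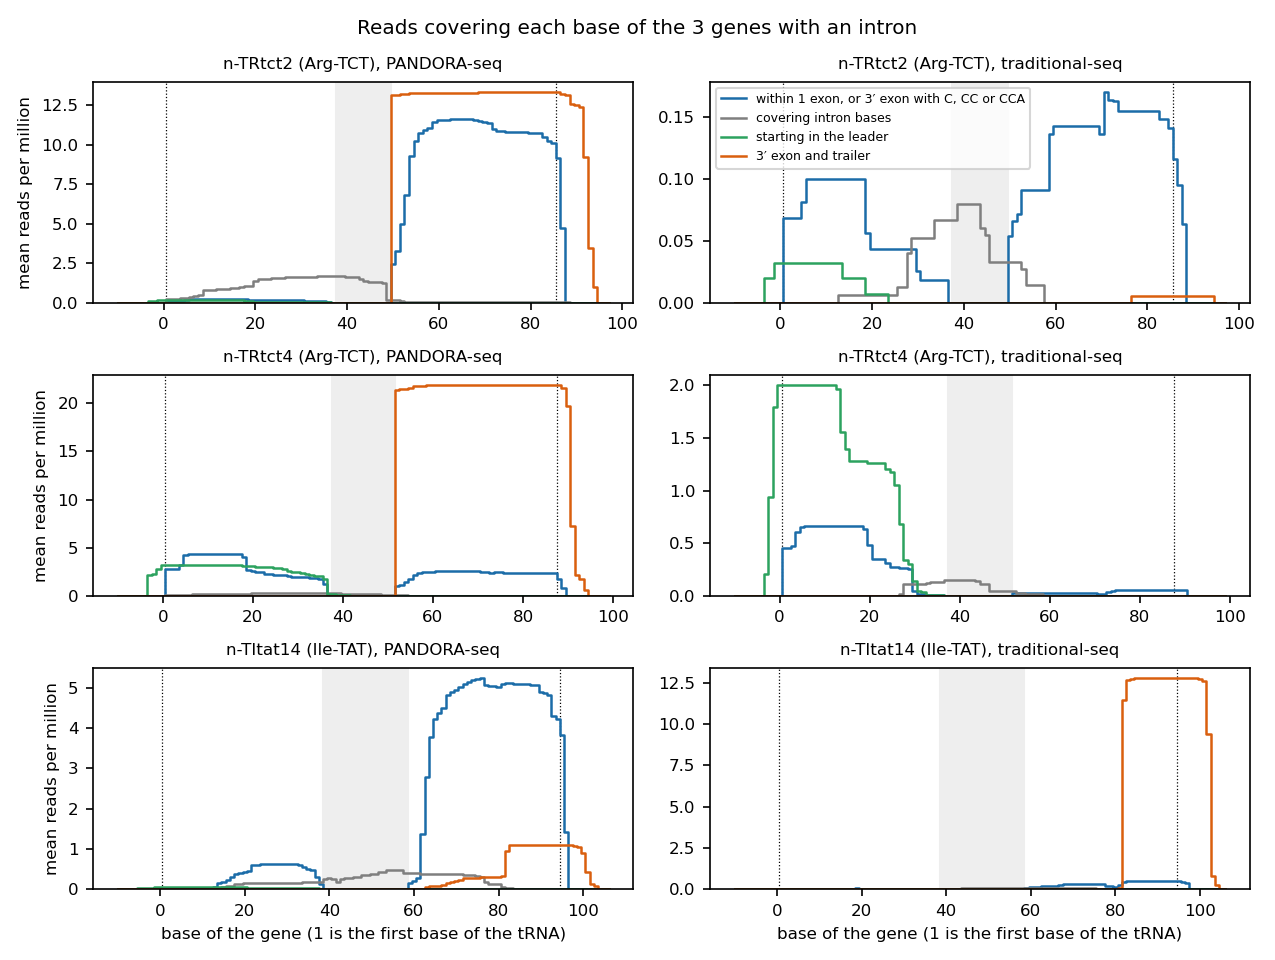
Mean RPM covering each base of n-TRtct2, n-TRtct4 and n-TItat14 and their flanks, by protocol; grey marks the intron, dotted lines the gene ends, and the vertical scales differ. Coverage of both Arg-TCT genes rises at the 3′ edge of the intron and runs past the gene end by PANDORA-seq, at 35.2 RPM of trailer reads, and Ile-TAT coverage peaks over the gene end by traditional-seq, at 12.8 RPM.

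The genotypes were compared to ask whether these tsRNAs change in the AD cortex. By PANDORA-seq 0 of the 10 rows was called by the same limits (edgeR quasi-likelihood test with Benjamini-Hochberg adjustment over 1115 RNAs, TMM), where 4.13% of all RNAs were called, 40 lower and 6 higher. At an unadjusted p under 0.05 there were 0 as well. The likelihood ratio test of edgeR and DESeq2 also called 0, with 0 and 1 at an unadjusted p under 0.05. The median log2 difference, AD against WT, was 0.21 for the 10 rows and 0.07 for all RNAs. Of the mitochondrial tRNAs 2 of 22 were called, both lower.

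Single anticodons had wide errors. The largest difference was that of Arg-TCT, which ranged from 7.39 to 25.4 RPM with a median of 19.5 in WT and from 19.8 to 37.3 with a median of 24.9 in AD by PANDORA-seq. Every AD library lay above the WT median, and the ranges overlapped. The log2 difference was 0.55 ± 0.29 (SE, edgeR adjusted p = 0.350). The means, 26.6 RPM in AD and 18.8 in WT, gave an exact permutation p of 0.0224, 1 of 18 such tests of anticodons within a protocol and not adjusted for their number. The reads shared by Ser-AGA and Ser-TGA differed by 0.49 ± 0.29 (edgeR adjusted p = 0.434), Ser-GCT by 0.38 ± 0.62 (0.823), Ile-TAT by 0.22 ± 0.32 (0.790) and Gly-CCC by 0.20 ± 0.36 (0.844). Arg-TCG and Pro-TGG differed by 0.04 ± 0.54 (edgeR adjusted p = 0.981) and 0.00 ± 0.33 (0.997), and Ser-AGA and Ser-TGA both by -0.17, with errors of 0.51 and 0.44. A 2-fold change lay within 2 standard errors of the estimate for every anticodon except Gly-CCC, Ile-TAT and Pro-TGG.

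By traditional-seq 5 rows passed the filter on low counts and 0 were called, nor was any of the 665 RNAs tested (0% of all RNAs, edgeR quasi-likelihood test). At an unadjusted p under 0.05 there were 0 of the 5 and 9 of the 665, and the likelihood ratio test and DESeq2 also called 0. The log2 differences of these 5 anticodons lay between -0.13 for Arg-TCT and 0.13 for Ser-GCT. The reads particular to Ser-AGA, which did not pass the filter, had 0.0790 RPM in AD and 0.302 in WT (exact permutation test, p = 0.0111), values near the floor that rest on 6 and 25 reads. In the same libraries the much more numerous reads from the ends shared with Ser-TGA differed by -0.03 on the log2 scale. They cannot be assigned to Ser-AGA, so they do not decide whether it differs.

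By fragment, 0 of 16 rows was called by PANDORA-seq (4.26% of all 1149 rows, edgeR quasi-likelihood test), with 1 at an unadjusted p under 0.05, and 0 of 11 by traditional-seq (0% of all 703 rows), with 0 at an unadjusted p under 0.05. By DESeq2 and by the likelihood ratio test 0 of the 16 were called, each with 1 at an unadjusted p under 0.05, and 0 of the 11, each with 0. With the finer classes 0 of 32 rows was called by PANDORA-seq (4.22% of all 1185 rows, edgeR quasi-likelihood test), with 2 at an unadjusted p under 0.05. The 5′ fragments of all 4 anticodons tested were higher in AD in the PANDORA-seq estimates, none past the threshold. Those of Arg-TCT ranged from 1.08 to 4.13 RPM with a median of 2.43 in WT and from 1.84 to 6.44 with a median of 3.80 in AD, and overlapped. The difference was 0.77 ± 0.37 (SE, edgeR adjusted p = 0.288). Those of Ser-GCT, at 115.8 ± 57.2 RPM in WT and 176 ± 85.6 in AD (SD, n = 8 each, overlapping), differed by 0.83 ± 0.48 (adjusted p = 0.394 in edgeR's fit). Those of Ser-AGA/Ser-TGA differed by 0.51 ± 0.29 (edgeR adjusted p = 0.391) and those of Gly-CCC by 0.36 ± 0.40 (0.725). The difference of genotype did not differ detectably between the protocols in any of 19 rows (0 called by edgeR's interaction test, 1 at an unadjusted p under 0.05, and 0% of all 1298 rows called).

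**Figure D5:**
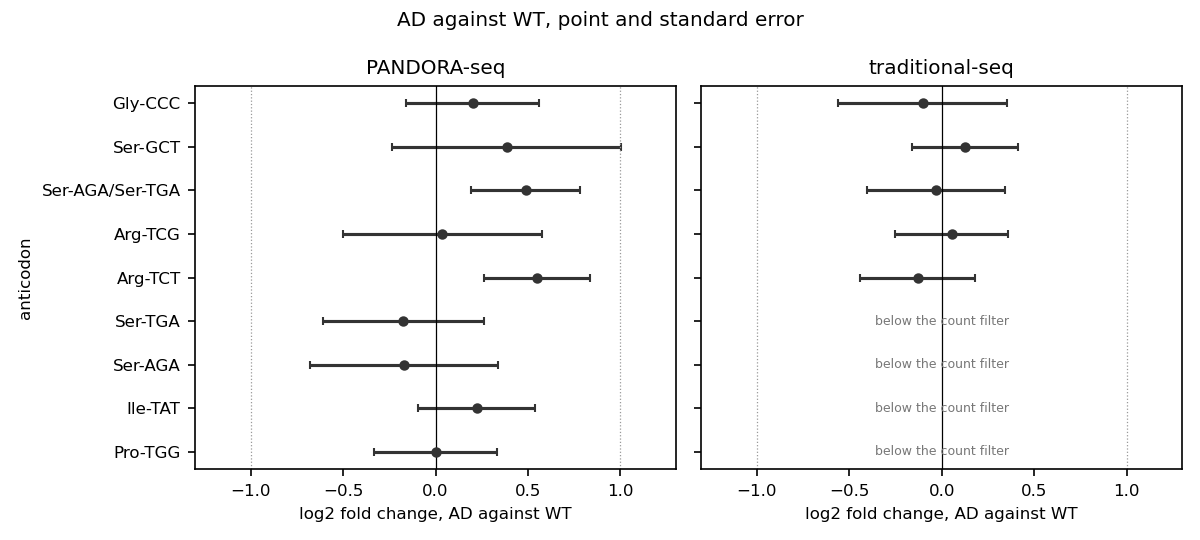
Log2 difference of AD against WT with its standard error for each anticodon, in PANDORA-seq and traditional-seq; dotted lines mark a fold of 2, and anticodons below the count filter are named as such. The estimates lie between -0.17 and 0.55 by PANDORA-seq, and none was called.

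Among single sequences, 419 of these tRNAs could be tested by PANDORA-seq, and 1 was called, lower in AD. Over all 188718 sequences tested 1.88% were called lower and 0.0403% higher. At 15 to 42 nt 1 of 373 of these tRNAs was lower, against 0.0584% of all. At 43 to 45 nt 0 of 46 were lower, against 19.7% of all 17537. The sequence runs from base 37 to base 74 of the Ser-GCT gene and is 38 nt long.
Ser-GCT internal fragment: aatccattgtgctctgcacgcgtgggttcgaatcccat
It ranged from 0 to 1.58 RPM with a median of 0.727 in WT and from 0.0121 to 0.121 with a median of 0.0509 in AD. Most WT libraries lay above the AD libraries, but at least 1 WT library had no read. The log2 difference was -3.72 ± 0.70 (SE, edgeR adjusted p = 0.00546). Paired by library number in the fit, the adjusted p was 0.0685 (edgeR). With 1 library left out, 2656 to 8485 of all sequences were called lower and 18 to 384 higher. This sequence was called in 16 of 16 such fits. In 9 of those (without WT replicate 6 or without any AD replicate) 2 or 3 sequences were called, always with a shorter one from the same start, bases 37 to 52 of the Ser-GCT gene, which passed the filter on low counts in these 9 fits and not with all libraries.
Ser-GCT internal fragment of 16 nt: aatccattgtgctctg
It ranged from 0.0653 to 1.04 RPM with a median of 0.552 in WT and from 0 to 0.0980 with a median of 0.0312 in AD, and the ranges overlapped. In the 9 fits its log2 difference lay between -4.25 and -3.81 (edgeR adjusted p 0.000789 to 0.00253). No AD library held more than 9 of its reads, under the smallest count of 10, so it passed the filter through the WT libraries alone. The sequence of 38 nt had at most 10 reads in any AD library and a median of 55.5 in WT. The fits with a library left out are therefore a description and no further support. The other sequence called, without AD replicate 5 or AD replicate 7, was Gly-CCC bases 54 to 69, at 2.73 and 2.79 (edgeR adjusted p 0.0452 and 0.0440). By traditional-seq 26 sequences were tested and 0 called (0% of 24841, edgeR quasi-likelihood test), with 0 at an unadjusted p under 0.05, while 360 of all those tested had one. The likelihood ratio test called 0 as well.

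Read length moved with genotype in the PANDORA-seq libraries. Reads of 43 to 45 nt made up 11.2% to 21.5% of all reads of a WT library, with a median of 15.1%, and 2.13% to 10.7% of an AD library, with a median of 4.25%. The ranges did not overlap. Of the 3548 sequences called lower over all RNAs, 3448 were of these lengths. Among the reads of these tRNAs those of 43 to 45 nt, of which Ser-GCT gave most, had 298 ± 262 RPM in WT and 278 ± 254 in AD over all anticodons (SD, n = 8 each). When only reads of 43 to 45 nt were tested against each other, 5 of 6 rows were called higher in AD, against 24.9% of the 374 RNAs tested (edgeR quasi-likelihood test, TMM), and 6 of 8 fragment rows, against 18.8% of 389. For the anticodon rows these went with median log2 differences of 2.25 for the rows and 0.20 for all RNAs. The anticodon rows called were Ser-GCT at 2.98 ± 0.78, Gly-CCC at 2.92 ± 0.55, Ser-AGA at 2.38 ± 0.57, Arg-TCT at 2.12 ± 0.47 and Ser-TGA at 2.02 ± 0.55. The fragment rows called were 5′ fragments of Gly-CCC at 2.46 ± 0.44 and the other reads of Arg-TCT at 2.66 ± 0.50, Ser-GCT at 2.51 ± 0.76, Gly-CCC at 2.48 ± 0.58, Ser-AGA at 1.98 ± 0.56 and Ser-TGA at 1.67 ± 0.55. That estimate is relative to the other reads of those lengths. Scaled to all reads of the library in place of TMM, an alternative added after seeing the data, 0 of the 6 rows was called higher and 1 lower (Arg-TCG, -1.87 ± 0.81, edgeR adjusted p = 0.0376; 1 at an unadjusted p under 0.05), against 73.7% of 365 called lower, and of the 8 fragment rows 0 were called higher and 1 lower (Arg-TCG; 2 at an unadjusted p under 0.05), against 74.1% of 379. The 5 anticodon rows named above then lay between -0.64 and 0.04, and the median of all RNAs was -1.95. With reads of 15 to 40 nt alone 0 of the 10 rows was called by edgeR, with 0 at an unadjusted p under 0.05, and 0 of all RNAs were called. The part of read length in the other differences was not tested further.

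The summed reads of these tRNAs, most of them Gly-CCC and Ser-GCT, were compared with other small RNAs across the 16 PANDORA-seq libraries. Among 342 RNAs with a mean of at least 10 RPM, the 3 whose log2 RPM ranked most like the summed reads were Mir92b (Spearman's rho 0.812, Pearson's r 0.690), Mir1249 (0.782 and 0.655) and n-R5s101, a 5S rRNA gene (0.771 and 0.694). Without the 2 libraries farthest from the median r was 0.730, 0.874 and 0.751. The median rho over the 342 RNAs was -0.141 and the lowest -0.765. The RNAs named are the extremes of these 342 comparisons in 1 direction. The values share the library total and its length distribution, so they are given as a description.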

How the data were processed

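Small RNA of mouse prefrontal cortex was sequenced in 30 libraries (8 WT and 8 AD by PANDORA-seq, 7 WT and 7 AD by traditional-seq), grouped by their titles. The authors prepared libraries with a NEBNext kit, sequenced them on an Illumina NovaSeq and annotated reads with SPORTS1.1, allowing 1 mismatch. The submitters' processing notes name mm39. The deposited values are raw counts of reads per distinct sequence of 15 to 45 nt (PANDORA-seq) or 15 to 42 nt (traditional-seq), without coordinates. The authors' annotation columns were not used. Per the study each library of a protocol is from 1 mouse. Codes in the file names pair 14 libraries of each protocol, but whether these are the same mice is not stated. Tests between protocols treat the 30 libraries as independent, and a fit blocked on the codes is an alternative.

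Genes were taken from RefSeq GRCm38, exons and small RNAs (6109 transcripts) from GENCODE vM21, and sequences were matched whole and without mismatch. RPM is the count scaled to 1000000 reads of the library. Matched reads made up 6.72% to 16.3% of PANDORA-seq and 41.2% to 56.2% of traditional-seq libraries. Counts were tested with edgeR 4.0.16 (R 4.3.3): filterByExpr (smallest count 10, smallest total 15), quasi-likelihood test, Benjamini-Hochberg adjustment over all rows, called at adjusted p under 0.05 and fold over 2. TMM was used within a protocol and library totals between protocols. The likelihood ratio test and DESeq2 1.42.0 were alternatives, with other scalings (matched reads added after seeing the data), filters, lengths, a block for library number and each library left out. Single values were compared by two-sided exact permutation over 12870 splits of 8 against 8 (smallest p 0.000155) or 3432 of 7 against 7 (0.000583), and between protocols by 100000 shuffles (Python 3.11.15, numpy 2.4.6, pandas 2.3.3, scipy 1.17.1, matplotlib 3.10.9; matching compiled with g++ 11.4.0). The matching of fragments to these genes and the fit of genotypes on the anticodon rows within a protocol were tested on simulated data. The other steps were not.

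Named in the text are every anticodon of the set, the sequence with most reads per anticodon, fragment class and protocol where it shows a pattern, every row called in the fits reported and at 43 to 45 nt, and the 3 RNAs most alike. The members and the lists of marker and mitochondrial RNAs were chosen with earlier results of these data known. Reads carry no molecular identifiers, so floors cover counting error only. The sequences of n-TRtct4 and n-TGccc7 are not printed because they lie in UTR exons. Some sequences and names are not reported here.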

Additional observations from a re-analysis of the deposited data

Results flagged for a closer look

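Of the 36 groups of libraries checked for a single library far from the others (9 anticodon rows in 4 groups), 3 held one, and chance alone gives about 1 in 20. Arg-TCG had 381.2 RPM in WT PANDORA-seq replicate 3, where the next highest of its group had 166.4. Ser-AGA/Ser-TGA had 370.2 RPM in WT PANDORA-seq replicate 8, where the next highest had 230.6. Ser-AGA had 0.7936 RPM in WT traditional-seq replicate 2, where the next highest had 0.3447. Reads that differed by 1 base from the Pro-TGG gene are left out by the exact match. They had a mean of 194.5 RPM by PANDORA-seq, against 0.467 RPM for exact matches of that gene, and 51.6 RPM by traditional-seq. They were present in all 16 and all 14 libraries, and from which of the 6 other Pro-TGG genes of RefSeq or other RNAs they came was not tested.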

How the results depend on the processing

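Beside leave-one-out, 68 of 77 counts of called rows stayed within 1.5 times, as did 141 of 150 with a library left out. Restricted to 43 to 45 nt, AD against WT by PANDORA-seq called 5 anticodon rows and 6 fragment rows (0 each otherwise), and Ser-AGA and Ser-TGA turned from negative to 2.38 and 2.02 on the log2 scale, where both the reads counted and the total they are scaled to change. With those reads scaled to all reads, 1 anticodon row and 1 fragment row were called, both of Arg-TCG and lower, and Arg-TCG and Arg-TCT turned to -1.87 and -0.62, the scaling being the only change from the fit at those lengths. With 5 fragment classes, chosen after seeing the data, 28 rows differed between protocols (16 otherwise), since more rows were tested, 28 also at 15 to 42 nt and 29 when also scaled to matched reads, fits that change 2 choices. Scaled to matched reads alone, 10 anticodon and 15 fragment rows differed, and the complete-CCA rows of Gly-CCC and Ser-GCT turned from lower to 0.55 and 0.79. Adding splice junction reads, also chosen after seeing the data, took Ile-TAT from 3.03 to 1.58. The likelihood ratio test called 2 single sequences of PANDORA-seq and the fit with library number as a replicate block called 0 (1 otherwise); the second sequence was Gly-CCC bases 54 to 69, 2.66 on the log2 scale, with an adjusted p of 0.0885 in edgeR's quasi-likelihood test. The cause was not tested.

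Leaving out each library in turn gave 1 to 3 called sequences by PANDORA-seq, with 3 without AD replicate 5 or AD replicate 7 and 2 without WT replicate 6 or AD replicate 1, 2, 3, 4, 6 or 8. It gave 9 to 10 anticodon rows and 15 to 16 fragment rows between protocols, and 0 to 0 in each other comparison of genotypes. Whether library numbers pair the samples is not stated. Deviations of same-numbered WT and AD libraries correlated at -0.451 to 0.355 by PANDORA-seq and -0.462 to 0.439 by traditional-seq. A library matched its own number best for 2 of 8 numbers and 0 of 7. So few numbers cannot decide whether they pair. The replicate block changed no other count by over 1.5 times among these tRNAs, and over all RNAs by PANDORA-seq it gave 41 lower and 1 higher in place of 40 and 6. Scaling RPM to matched reads moved 41 of 52 levels by more than the spread between libraries, limiting both the reads counted and the total to 15 to 42 nt moved 1 of 52 (Ser-AGA by PANDORA-seq, 13.2 to 4.47 RPM), and looser 3′ and 5′ ends moved 10 of 18 and 5 of 16. Depth limits the traditional-seq values of Pro-TGG, Ser-AGA and Ser-TGA, which lie near 3 reads.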
